A study of Mus musculus with 3 samples.

Results

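The Frizzled receptor family was examined as the RNA that comes down with YTHDF2, a cytoplasmic reader of N6-methyladenosine (m6A) that promotes decay of the RNAs it binds. The members were the genes Fzd1 to Fzd10, taken by their symbols from a table of raw read counts, and they made up 10 of 49997 genes. The table came from RNA immunoprecipitation sequencing (RIP-seq) of E14 mouse embryonic stem cells (ESCs), with 1 input library and 2 YTHDF2 immunoprecipitation (IP) libraries. All 3 libraries came from cells given doxycycline (Dox) for 24 h, so no library without Dox enters here. As the study describes its system, the cells carried a tdTomato reporter driven by the MERVL promoter, and Dox switched on a Dux transgene, which moves part of an ESC culture toward a state resembling the 2-cell embryo. The question was which transcripts YTHDF2 pulls down in such cells, and it is read here for the Frizzled mRNAs by comparing IP with input. No IP with a control antibody enters here, so ratios to input are not corrected for RNA held by the beads alone.

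Frizzled proteins are multipass membrane receptors whose cysteine-rich extracellular domain binds the lipid of secreted Wnt ligands. Together with the co-receptors Lrp5 and Lrp6 they recruit Dishevelled and stabilise β-catenin, and through other partners they steer planar cell polarity. In mouse ESCs, signalling through β-catenin favours self-renewal, and the ubiquitin ligases Znrf3 and Rnf43 remove Frizzleds from the surface unless R-spondins hold them back.

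The feature that the members share at the protein level is the Dishevelled-binding motif just after the last membrane span, a Lys-Thr pair followed at a distance of 3 further residues by Trp. It was found once in the translated RefSeq coding sequence of each of the 10 members, whereas 2.08% of 21000 genes with a curated coding sequence held it anywhere. From the motif to the end of the protein there were 23 residues in Fzd1, Fzd2 and Fzd7, 165 in Fzd3 and 212 in Fzd6. The codons are shown for 5 members whose ratios are contrasted below, from RefSeq on GRCm38.p6 (mm10), 30 coding bases each and 5′ to 3′ along the gene, with the Lys, Thr and Trp codons in capitals. The stretches lie at chr5:135249410-135249439 on the minus strand (Fzd9), chr5:128602790-128602819 on the plus strand (Fzd10), chr1:59484601-59484630 on the plus strand (Fzd7), chr14:65212101-65212130 on the minus strand (Fzd3) and chr15:39033943-39033972 on the plus strand (Fzd6).
Fzd9: agttccAAGACTtttcagactTGGcagagc
Fzd10: acttccAAGACCctgcagtccTGGcaacac
Fzd7: tcgggcAAGACCctgcagtcaTGGcgtcgc
Fzd3: agcaaaAAGACAtgctttgaaTGGgccagt
Fzd6: agcaaaAAGACGtgcacagaaTGGgccggg

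The libraries held between 35259827 and 36986994 counted reads, and both mates of a pair were counted, so sampling error is larger than the counts alone imply. The input had no replicate, so the error behind each p-value is how far the IP libraries lie from each other, and since nothing says that these came from separate cultures, it may be technical. ESC markers were present throughout, with summed levels (CPM, counts scaled to a common library total) of 8168 before IP and 8871 and 8806 after it. The 5 markers of 2-cell-like cells summed to 842.9 CPM before IP and to 1596 and 1579 after it, mostly through Zscan4c (522.3 against 1245 and 1222), while Usp17la stood at 276.3 against 284.6 and 297.3. The 6 markers of feeder fibroblasts summed to between 15.9 and 29.2 CPM, mostly from Thy1, and Col3a1 and Dcn were at 0 counts in all 3 libraries. Trophoblast and primitive endoderm lists of 5 markers each summed to between 2.06 and 8.00 CPM and between 17.3 and 22.3 CPM. Since whole cultures were sequenced, fewer cells with an mRNA and less of it per cell cannot be told apart.

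All 10 Frizzled genes were detected in every library and passed the filter on low counts. Per exonic length (RPKM, counts scaled to the library total and to kilobases of exon), Fzd5 was the most abundant by far, with 30.5 in input RNA and 51.8 and 48.9 after IP (replicates 1 and 2). Fzd7, a close relative of Fzd1 and Fzd2, came next in the input at 10.3 RPKM and reached 11.7 and 11.1 in the IP libraries. Below it in the input were Fzd10 at 8.01, Fzd9 at 5.69, Fzd2 at 4.28, Fzd6 at 3.50, Fzd8 at 2.47 and Fzd4 at 2.38 RPKM. Fzd3 and Fzd1 were lowest, at 0.959 and 0.661 RPKM. Neighbours in this input order cannot be set against replicate spread, since the input was sequenced once. In the IP libraries Fzd9 took the second place, with 21.8 and 19.8 RPKM, ahead of Fzd10 (12.7 and 11.5) and Fzd7. Fzd10 and Fzd7 did not differ in that order beyond their spread, at 12.1 ± 0.80 and 11.4 ± 0.46 RPKM (SD, n = 2). Fzd8, with 5.21 and 5.02 RPKM, also moved ahead of Fzd6, with 2.66 and 2.94.

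**Figure D1:**
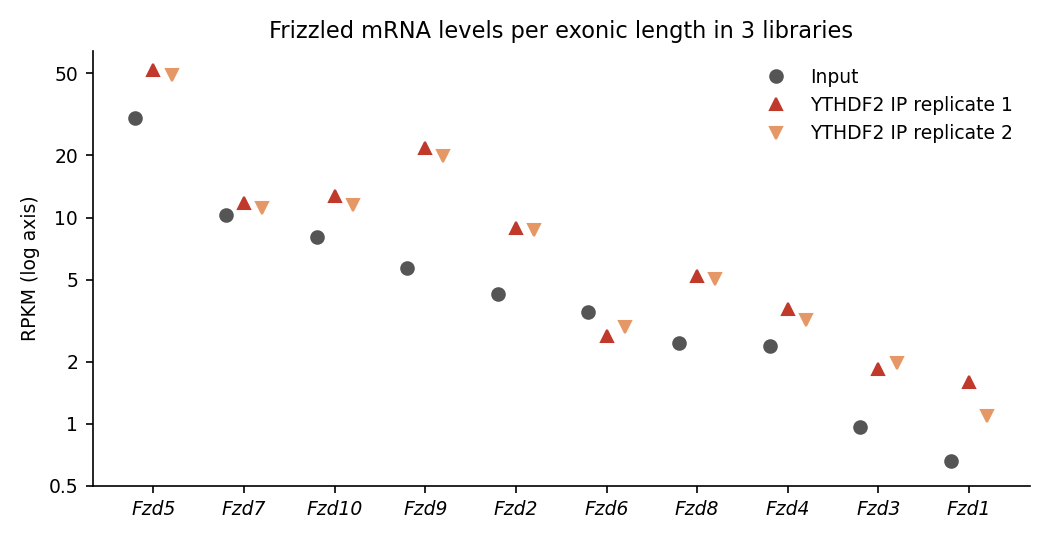
Level of each Frizzled mRNA in RPKM (log axis), ordered by the input, with 1 point for each of the 3 libraries. Fzd5 lies highest in every library at 30.5 to 51.8 RPKM, Fzd9 rises from 5.69 in the input to 21.8 and 19.8, and Fzd6 is the member whose 2 IP points lie below its input point.

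Summed over the family, Frizzled genes held 13327 reads before IP and 21289 and 20482 reads after it. The family thus made up 360.3 CPM of the input (95% Wilson interval 354.3 to 366.5), 603.8 CPM of IP replicate 1 (595.7 to 611.9) and 570.7 CPM of the other IP library (562.9 to 578.6), where the intervals cover counting error only. Fzd5 alone supplied 58.6% of the family reads before IP and 59.3% and 59.2% after it. CPM and RPKM are scaled to library totals alone, whereas all ratios and fold changes below also carry the TMM factors of edgeR, which lowers each IP-to-input ratio by about 0.1 on the log2 scale. With those factors the log2 ratio of the family sum to the input was 0.65 and 0.57, and 0.62 and 0.55 without Fzd5, so the rise of the sum did not rest on that receptor. Within the family, the share of Fzd9 went from 3.33% (3.04% to 3.65%) in the input to 7.61% and 7.31%, while that of Fzd7 went from 13.8% (13.2% to 14.4%) to 9.33% in both IP libraries. The share of Fzd6 went from 4.46% (4.12% to 4.82%) to 2.02% and 2.37%.

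To ask which Frizzled mRNAs were pulled down, the edgeR quasi-likelihood test was run over 19601 genes, with Benjamini-Hochberg adjustment. Calls of enriched or depleted genes required more than a 2-fold change together with an adjusted p below 0.05. By this rule 1 of the 10 members, Fzd9, was enriched and 0 were depleted, compared with 15.2% and 14% of all genes tested. With the fold requirement dropped, 7 members were higher in the IP libraries, 1 was lower and 2 passed in neither direction. Over all genes those shares were 28.5% and 30.1%. The median log2 fold change of the members was 0.76, beside 0.0065 over all genes (quartiles at −0.72 and 0.81), and 5 members lay above that upper quartile. In both IP libraries taken alone, 9 of the 10 members were higher than in the input, as were 44.2% of all genes. The family thus stood mostly between no change and a 2-fold rise, and 4 members lay just under the 2-fold threshold, at log2 fold changes of 0.89 to 0.95. The count of enriched members was therefore sensitive to scaling, and rose to 4 with total counts (16.9% of all genes) and to 5 with TPM (reads per length, scaled to a fixed sum; 18.2% of all genes), and these scalings moved the all-gene median up by 0.096 and 0.15. With DESeq2 size factors it stayed at 1. DESeq2 itself called 6 members higher and 0 lower at any fold, beside 22.8% and 22.5% of all genes, and with a fixed dispersion of 0.1, a larger spread than the IP libraries show, Fzd9 alone passed, beside 8.05% of all genes higher and 7.81% lower.

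**Figure D2:**
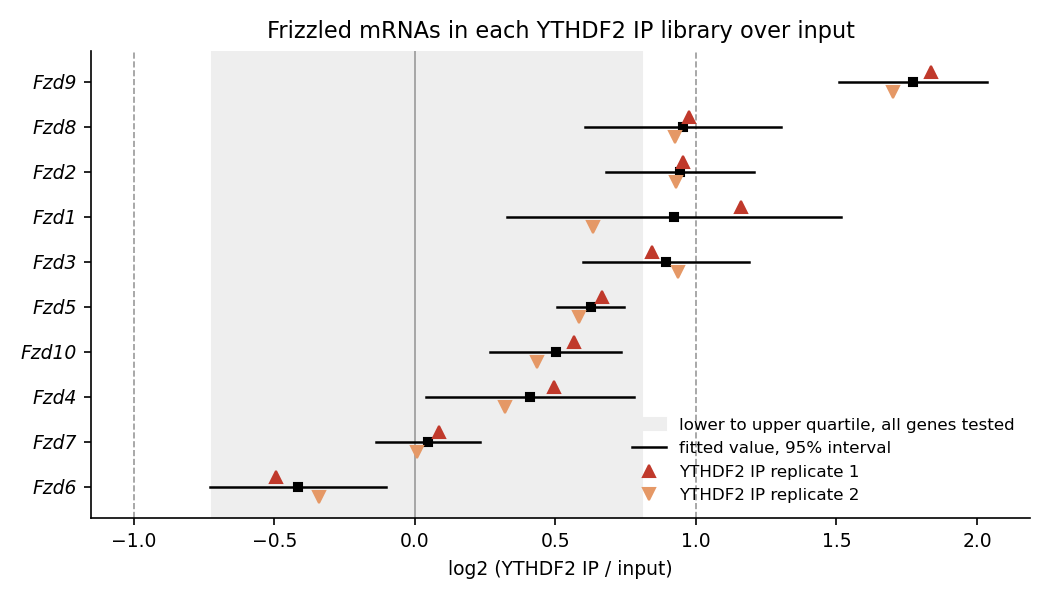
Log2 ratio of YTHDF2 IP to input for each member, with triangles for the 2 IP libraries, squares for the fitted value and bars for its 95% interval. Grey marks the quartiles of all genes tested, and dashed lines mark 2-fold. Fzd9 lies beyond 2-fold in both libraries (1.84 and 1.70), Fzd7 lies at 0.08 and 0.01, and Fzd6 lies below 0 in both (−0.50 and −0.34).

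The 2 IP libraries share the input, so their ratios are not independent. These log2 ratios to the input differed by a median of 0.11 over the 10 members, and by at most 0.17 once Fzd1 was set aside. Over the 12620 genes averaging 100 counts or more, the SD of that difference was 0.205. Fzd1, with the fewest reads, differed by 0.53. In 8 of the 10 members IP replicate 1 was the higher one, and the share over all genes was not computed.

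Fzd9, whose human counterpart lies in the region lost in Williams syndrome, was the enriched member. It was counted 444 times before IP and 1620 and 1498 times after it. With TMM scaling, both IP values were more than 3 times the input value, at 3.57- and 3.26-fold. The fitted log2 fold change was 1.77 ± 0.133 (SE), 3.42-fold, with an edgeR adjusted p of 1.93e-20. The gene lies on the minus strand at chr5:135248938-135251047 and is a single exon of 2110 bases. Its nearest neighbour, Baz1b, lies 2807 bases away on the other strand, without exonic overlap.

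Fzd10, the member most similar to Fzd9 in protein sequence among the 10 (67.0% identity), rose by under 1.5-fold. It was counted 885 times before IP and 1336 and 1238 times after it, with both IP ratios between 1.35- and 1.48-fold. The fitted log2 fold change was 0.50 ± 0.117 (edgeR adjusted p = 0.000143). The 95% intervals of the pair, 0.27 to 0.73 for Fzd10 and 1.51 to 2.04 for Fzd9, did not overlap, although the difference between the genes was not itself tested. Fzd10 is a single exon on the plus strand at chr5:128601106-128604093. The noncoding gene Fzd10os, singled out after its values were seen, lies 419 bases from it on the other strand. It was counted 21 times before IP and 152 and 121 times after it, a log2 fold change of 2.65 ± 0.492 (edgeR adjusted p = 2.48e-06), and its exons do not overlap those of Fzd10.

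Fzd1, Fzd2 and Fzd7 form the most similar group, with protein identities of 79.4% to 81.6%, and they did not move together. Fzd2 was counted 574 times before IP and 1136 and 1133 times after it. Its IP values were nearly identical and just short of 2 times the input value, with a log2 fold change of 0.94 ± 0.132 (edgeR adjusted p = 2.03e-09). Fzd1 was counted 107 times before IP and 245 and 172 times after it, which made it 2.24-fold higher in IP replicate 1 and 1.55-fold higher in IP replicate 2. Its log2 fold change was 0.92 ± 0.299 (edgeR adjusted p = 0.00592), and DESeq2 gave an adjusted p of 0.0861. Fzd7, a Wnt receptor known from pluripotent cells, was counted 1836 times before IP and 1986 and 1910 times after it. Both IP libraries stayed close to the input, with log2 ratios of 0.08 and 0.01. The log2 fold change of Fzd7 was 0.05 ± 0.0925 (edgeR adjusted p = 0.696), with a 95% interval of −0.14 to 0.23 that lies below those of Fzd1 (0.33 to 1.52) and Fzd2 (0.68 to 1.21). Fzd1 is on the minus strand at chr5:4753839-4758216, Fzd2 on the plus strand at chr11:102604431-102608058 and Fzd7 on the plus strand at chr1:59482147-59486955, and each is a single exon.

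Fzd5 and Fzd8, which share 71.0% of their residues and couple to β-catenin signalling, both rose. Fzd5 was counted 7805 times before IP and 12627 and 12127 times after it. Both IP libraries were higher than the input, at log2 ratios of 0.66 and 0.59, with a log2 fold change of 0.63 ± 0.0596 (edgeR adjusted p = 1.79e-15). Fzd8 was counted 306 times before IP and 615 and 603 times after it, a log2 fold change of 0.95 ± 0.175 (edgeR adjusted p = 1.98e-06). Fzd5 lies on the minus strand at chr1:64730558-64737750, with a noncoding first exon and the whole coding part in the other. The 3 genes outside the family whose levels over the libraries were nearest to those of Fzd5 were Tmem92, Setd5 and Bcas2, at distances of 0.042, 0.057 and 0.063 in log2 CPM over 3 libraries. Their log2 fold changes of 0.65, 0.58 and 0.63 follow from that choice, which used the same libraries.

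Fzd4, the receptor for Norrin as well as Wnts, was counted 324 times before IP and 466 and 419 times after it. Both IP values were higher, by 1.41- and 1.25-fold, but the log2 fold change of 0.41 ± 0.185 did not pass (edgeR adjusted p = 0.0513). It stood at the threshold, and over the alternatives with a test its adjusted p ran from 0.00609 with the GC trend removed to 0.884 with 3 trends removed together, with 0.255 from DESeq2. The gene, on the plus strand at chr7:89404366-89410110, overlaps exons of Tmem135 on the other strand by 338 bases, where reads falling on both genes were left out. Tmem135 moved the opposite way, with a log2 fold change of −1.28 ± 0.129 (edgeR adjusted p = 1.77e-14), and the part of the overlap in the value of Fzd4 was not tested.

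Fzd3 and Fzd6, known for tissue polarity and axon guidance, are the members with many exons, and they moved in opposite directions. Fzd3 was counted 452 times before IP and 828 and 897 times after it. Both IP values were higher by 1.79- to 1.92-fold, with a log2 fold change of 0.89 ± 0.148 (edgeR adjusted p = 2.07e-07). Fzd6 was counted 594 times before IP and 430 and 485 times after it, and was the only one of the 10 members below the input in both. Its log2 fold change was −0.42 ± 0.157 (edgeR adjusted p = 0.0187), and DESeq2 gave an adjusted p of 0.187. The 95% intervals of the pair were 0.60 to 1.19 for Fzd3 and −0.73 to −0.10 for Fzd6, and their protein identity was 53.0%. Fzd3 lies on the minus strand at chr14:65192441-65262463 and Fzd6 on the plus strand at chr15:39006149-39038192. Fzd6 is listed on 1 further scaffold of the annotation, with 8731 exonic bases in all against 4591 on chromosome 15, so reads that map to both copies may have been left out. Its exons also overlap those of Gm26704 on the other strand by 502 bases, where reads falling on both genes were left out, so its level is uncertain.

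Most members have few exons. Of the 10 genes, 6 are a single exon and 2 more (Fzd4 and Fzd5) have 2 exons, while Fzd3 has 7 and Fzd6 has 8, against a median of 10 merged exons over protein-coding genes tested. The GC content of their exons ran from 40.3% in Fzd3 to 61.0% in Fzd9, and 7 members lay above the protein-coding median of 50.5%. The third bases of the codons were G or C in 47.7% of codons in Fzd3 and in 85.1% in Fzd2. Fzd3 differs from the rest by its transcript of 12742 bases, of which 10278 are 3′ untranslated.

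Single-exon genes with GC-rich exons were often high in the IP libraries. Among 360 protein-coding genes made of a single exon of at least 1000 bases, the 6 Frizzleds included, the median log2 fold change was 0.95 and 41.1% were enriched, compared with 0.0113 and 15.4% over all 15227 protein-coding genes tested. In the 227 of them with at least 50% GC the median was 1.34 and 54.6% were enriched, whereas in the 133 with less GC it was 0.43 and 18% were enriched. In the wider class where a single exon of at least 1000 bases holds 60% or more of the length, which takes in Fzd3, Fzd4 and Fzd5 too, the median was 0.30 and 22.9% were enriched. The 6 single-exon Frizzleds had a median of 0.93, with a range of 0.05 to 1.77, and 1 of the 6 was enriched. Within those 227 genes, Fzd9 was higher than 65.6%, whereas Fzd8, Fzd2 and Fzd1 were higher than 35.7%, 34.8% and 33.9%. Fzd10 and Fzd7 were higher than 20.3% and 11.5%. Among 83 other multipass receptor genes, taken by symbol, the median was 0.76 and 31.3% were enriched, beside 0.76 and 10% in the family. Fzd3 stood differently, since 1124 protein-coding genes of at least 10000 exonic bases had a median of −0.056, with 8.36% enriched. The 456 of them under 45% GC had a median of −0.42, with 4.82% enriched. Of these classes by structure, only the one where a single exon holds 60% or more was among the planned ones.

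**Figure D3:**
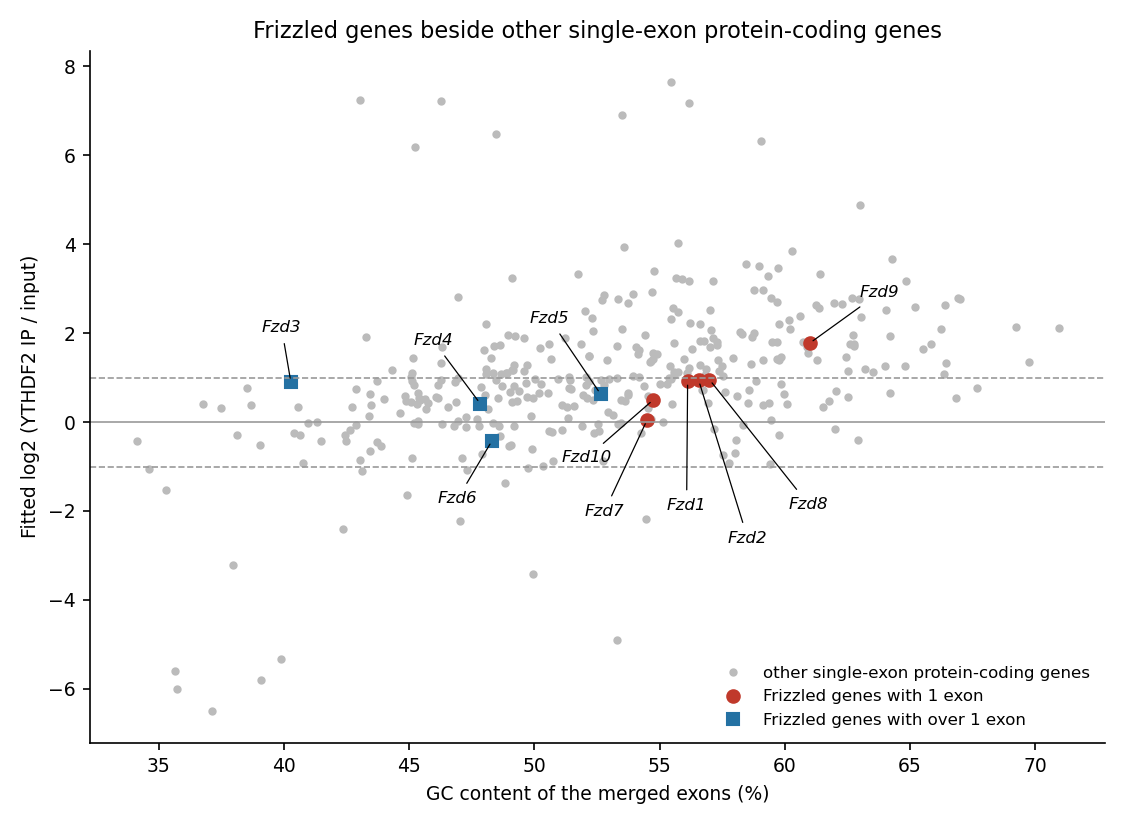
Fitted log2 ratio of YTHDF2 IP to input against GC content of the exons, for single-exon protein-coding genes of at least 1000 bases (grey), the 6 Frizzled genes with 1 exon (red circles) and the 4 with more (blue squares). Dashed lines mark 2-fold. The red circles other than Fzd9 lie at 0.05 to 0.95, under the median of 1.34 for genes of at least 50% GC, and Fzd3 lies at 0.89 with 40.3% GC.

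Trends of the log2 fold change on GC content, exonic length and exon number moved with these values. With the GC trend alone removed, Fzd3 stood at 1.65 and was enriched, above Fzd9 at 1.13, and Fzd7 stood at −0.18. With the 3 trends fitted over all genes and removed, a setting chosen after seeing the data, the median of the members was 0.12, and Fzd5 was lower in IP at −0.34. With the trends fitted over protein-coding genes the median was −0.52, no member was enriched, and Fzd7 was depleted at −1.42. Fzd9 stood at 0.96 and 0.26 under these settings and Fzd3 at 1.14 and 0.96. With an adjusted p below 0.05, Fzd3 and Fzd9 were higher in IP and 3 members lower under the first setting, compared with 27.6% and 26% of all genes. Under the other setting Fzd3 alone was higher and 6 members lower, compared with 26.4% and 26.7% of all genes.

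The m6A writer complex methylates A within the DRACH motif, and GGAC is its most used core. GGAC was counted along the transcribed strand of merged exons, as a match of 4 letters and not as a methylated site. Members held 5 to 30 of them, a median of 3.53 per kilobase against 4.04 over protein-coding genes, 96.4% of which held at least 1, and 3 members lay above that median. Fzd9 held the fewest, 5, or 2.37 per kilobase. By density of GGAC Fzd3 was lowest, at 1.33 per kilobase, and Fzd8 highest, at 5.38 per kilobase. Matches to the whole DRACH motif gave another order, from 9.92 per kilobase in Fzd2 to 19.5 in Fzd4. Fzd3 stood next below Fzd4 at 19.0, and Fzd8 stood at 14.6. Every member lay below the protein-coding median of 19.8 DRACH matches per kilobase. Fzd2 held 9 matches of GGAC and Fzd1 held 21, and no relation of the motif to the ratio was tested. The last coding match before the stop codon is shown for the member with the highest ratio and the 2 lowest, as 30 coding bases from RefSeq on GRCm38.p6, 5′ to 3′, with the 4 letters in capitals. In Fzd9 it lies at chr5:135249592-135249621 on the minus strand, 355 bases before the stop codon. In Fzd7 it lies at chr1:59484247-59484276 on the plus strand, 416 bases before it, and in Fzd6 at chr15:39035092-39035121 on the plus strand, 289 bases before it. DRACH ends in A, C or T, so the match in Fzd7, which G follows, is not a DRACH match, unlike those in Fzd9 and Fzd6.
Fzd9: aacgcctcaacatGGACttctggcggcttc
Fzd7: tacctcttcatcgGGACgtccttcctgttg
Fzd6: gcgccaaagatcgGGACtgtggggaatctg

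**Figure D4:**
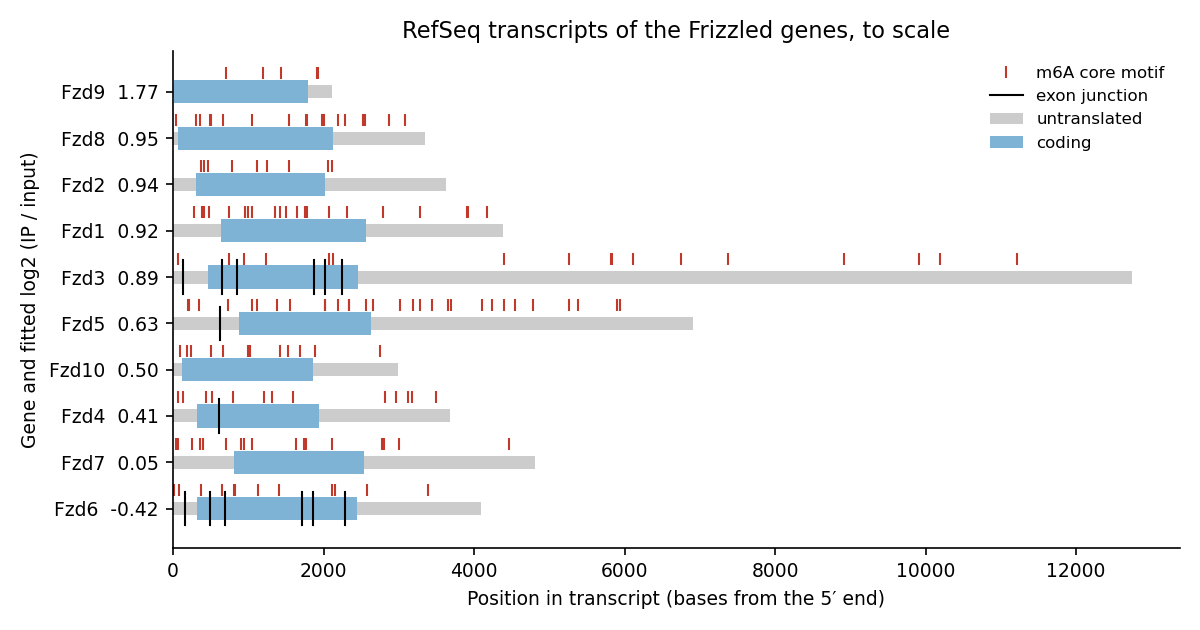
RefSeq transcripts of the 10 members drawn to scale in bases from the 5′ end, ordered by the fitted log2 ratio of IP to input given beside each name, with the coding part in blue, exon junctions as black lines and the 4-letter m6A core motif as red ticks. Fzd9, at the top with 1.77, has the shortest transcript and 5 ticks, and Fzd3 has the longest, mostly 3′ untranslated. Ticks mark the 4 letters whatever base follows, so not all lie within DRACH.

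The other genes of the pathway gave a setting for the receptors. Of 73 such genes 58 were tested, 11 were enriched (19% against 15.2% of all genes) and 5 depleted (8.62% against 14%), with a median log2 fold change of 0.45, so the enriched share lay near that of all genes. With the fold requirement dropped, 22 were higher and 11 lower, beside 28.5% and 30.1% of all genes. Of the 19 Wnt ligands 13 were tested, with a median of 1.14, and 6 were enriched (46.2%) and 0 depleted. They were scarce mRNAs, and the 2 highest among the called ones were Wnt4, with 4 input reads against 85 and 50 after IP (16.0-fold, edgeR adjusted p = 4.94e-05), and Wnt7b, with 43 against 240 and 252 (log2 fold change 2.47 ± 0.357). The filter on low counts could be passed in 1 library alone. Wnt4, Wnt3 and Wnt10a, with 4, 8 and 6 input reads, passed only on their higher IP counts. Wnt5a, with 8 input reads, also passed only on its IP counts, at a log2 fold change of −0.45. Whether this filter raised the median and the enriched share of the ligands was not tested. The lowest of the called ligands were Wnt9a at 1.14 ± 0.382 and Wnt6 at 1.40 ± 0.5 (edgeR adjusted p = 0.0134). Wnt6 had log2 ratios of 1.84 and 0.73 in IP replicates 1 and 2, so the latter lay under 2-fold. The mRNAs of proteins that ligands need for secretion were lower in the IP libraries, namely that of the carrier Wls at −1.39 ± 0.213, which was depleted, and that of the acyltransferase Porcn at −0.36 ± 0.106 (edgeR adjusted p = 2.80e-08 for Wls and 0.00259 for Porcn).

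Receptors that act beside Frizzleds included members in both directions. Among 10 tested co-receptors and other receptors the median was 0.23, with 4 higher and 2 lower at an adjusted p below 0.05 (28.5% and 30.1% of all genes), and the difference from the Frizzleds was not tested. None was enriched (0 of 10) and 1 was depleted (10%), beside 15.2% and 14% of all genes. The depleted one was Reck, a partner in Wnt7 signalling, at −2.11 ± 0.199. Lrp5 had a log2 fold change of 0.09 ± 0.0711 (edgeR adjusted p = 0.308) and Lrp6 of 0.03 ± 0.0764 (adjusted p = 0.786). Smo, the Hedgehog pathway member related to Frizzleds, rose by 0.36 ± 0.0953 (adjusted p = 0.000645). Tspan12, which helps Fzd4 respond to Norrin, was counted 66 times before IP and 54 and 33 times after it, and did not pass (adjusted p = 0.237). Of the ligases that remove Frizzleds, Znrf3 rose by 0.27 ± 0.113 (adjusted p = 0.0385), while Rnf43, with 8 to 14 reads, had a log2 fold change of 0.54 ± 1.06, and no difference was detectable at this depth. Among the 7 tested genes of this turnover group 1 was enriched (14.3%, near the 15.2% of all genes), the R-spondin gene Rspo1, at 2.51 ± 0.244.

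Of the Dishevelled genes, which act directly downstream of the receptors, Dvl2 was depleted at −1.05 ± 0.0764 (edgeR adjusted p = 7.44e-21), Dvl3 fell by 0.65 on the log2 scale (adjusted p = 4.37e-10), and Dvl1 rose by 0.36 ± 0.105 (adjusted p = 0.00252). The 15 antagonists tested had a median of 0.43, with 3 enriched (20%) and 2 depleted (13.3%), near the 15.2% and 14% of all genes. Kremen2 at 1.65 ± 0.697 and Apcdd1 at 1.19 ± 0.136 were the highest of the called ones, and Wif1 at −2.54 ± 0.622 and Dkk3 at −1.15 ± 0.182 the lowest. Among 8 tested planar cell polarity genes, Vangl1 alone was enriched at 1.02 ± 0.0794 (12.5% against 15.2% of all genes). In that group 0 were depleted (14% of all genes), and the median was 0.31. Norrin itself (Ndp) was at 0 reads in all 3 libraries, for which a floor of 3 counts gives 0.0811 to 0.0851 CPM per library, a limit for counting error that is too low where both mates of a pair were counted.

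**Figure D5:**
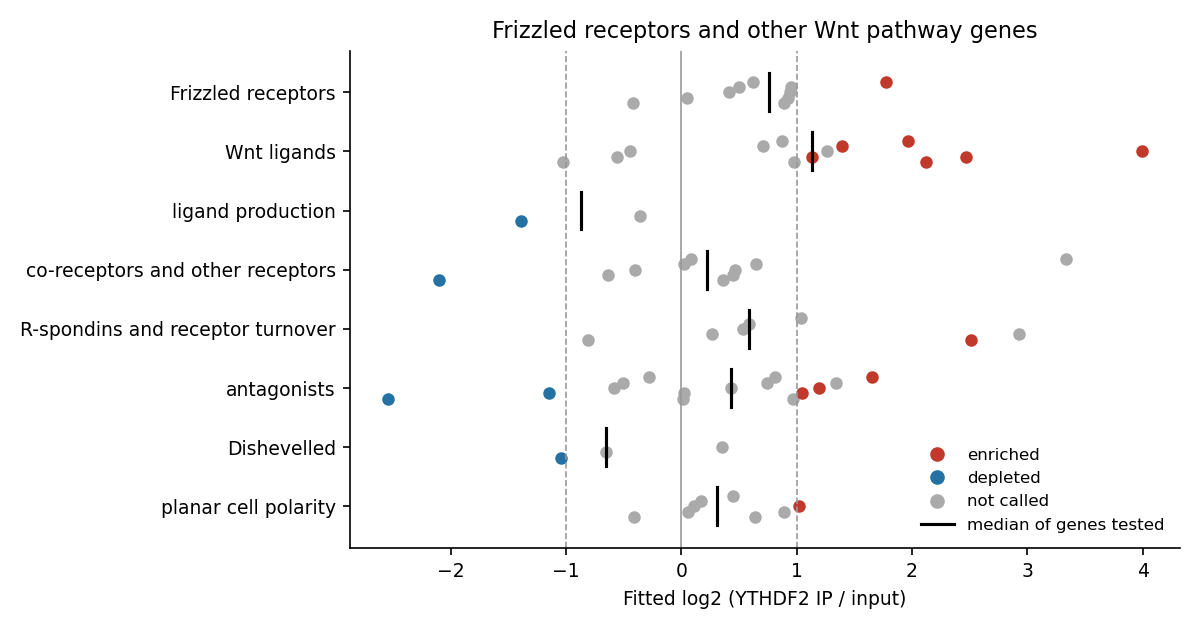
Fitted log2 ratio of YTHDF2 IP to input for each tested gene of the Wnt pathway groups, with the Frizzled receptors in the top row, red for enriched, blue for depleted and grey for genes not called. Black bars mark medians, which are 0.76 for the Frizzleds, 1.14 for the Wnt ligands, 0.23 for the co-receptors and −0.65 for the Dishevelled genes.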

How the data were processed

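RIP-seq libraries of E14 mouse ESCs were used, 1 input and 2 YTHDF2 IP, grouped by their titles. Per the methods of the study, anti-YTHDF2 was added to cleared lysate, whereas the labels describe an IP from Trizol-extracted RNA, and the counts do not tell which was done. The authors trimmed with fastp 0.19.4, aligned to mm10 with HISAT2 2.2.1 and used DESeq2 1.40.2, per the submitters' processing notes. The authors deposited raw read counts by gene, from featureCounts 2.0.3 over RefSeq exons. Per the file header each mate was counted, strand was not used, and reads over several genes or places were left out. Among counts of 1 to 100, even numbers made up 61.4%, 64.5% and 64.7% in the input and IP replicates 1 and 2.

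Counts were fitted in R 4.3.3 with edgeR 4.0.16 (filterByExpr, TMM factors of 0.957, 1.02 and 1.02, robust dispersions, glmQLFit and glmQLFTest), and 19601 genes were tested. The common dispersion was 0.00538. SEs and 95% intervals came from the fold change and F statistic. The fit was tested on simulated data. Ratios of single libraries used 0.5 added to each count and the TMM factors. CPM and RPKM did not use these factors. RPKM used library totals and exonic length on the main chromosomes. Structure, motifs and sequences came from RefSeq on GRCm38.p6, and protein identity from global alignment of translated coding sequences. Alternatives were DESeq2 1.42.0, other scalings, filters and dispersion, halved counts, removal of sequence trends and leaving out an IP library.

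The members and gene lists were chosen with earlier results of these data known. Named were all members, the 2 highest and 2 lowest called genes of each pathway group with both IP libraries on one side, fixed pathway genes (Lrp5, Lrp6, Smo, Porcn, Wls, Dvl1 to Dvl3, Znrf3, Rnf43, Tspan12) and the 3 genes nearest to the most abundant member in log2 CPM.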

Additional observations from a re-analysis of the deposited data

How the results depend on the processing

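No paired analysis was possible because the input was sequenced once and has no replicate to pair with either IP library. Values below are log2 fold changes of IP over input unless named as counts. Over the planned settings, Fzd7 with the GC trend removed (−0.18, against 0.05) was the only member to change sign, and it passed an adjusted p of 0.05 in neither. DESeq2 did not call Fzd4 (0.41, adjusted p = 0.255), and gave 0.93 for Fzd1 and −0.41 for Fzd6, both no longer past an adjusted p of 0.05, and the same held with no filter on low counts (0.95 and −0.39). Fzd4 passed with DESeq2 size factors (0.41), total counts (0.51), TPM (0.56), a mean of at least 100 counts (0.43), halved counts (0.41), the GC trend removed (0.57) and the length trend removed (0.44). Fzd6 did not pass with total counts (−0.32), TPM (−0.27) or the GC trend removed (−0.29). Enriched members numbered 4 with total counts, 5 with TPM, 2 with the GC trend removed and 2 with the length trend removed, beside 16.9%, 18.2%, 14.9% and 15.4% of all genes. With the GC trend removed these were Fzd3 (1.65) and Fzd9 (1.13), so Fzd3 stood highest, and with the length trend removed Fzd9 (1.66) and Fzd3 (1.05). The median of the members was 0.91 with TPM and 0.59 with the GC trend removed, where Fzd1 (0.63) and Fzd10 (0.26) no longer passed. TPM raised the median of all genes by 0.15 and the share of enriched among all calls from 52.0% to 62.4%. A mean of at least 100 counts gave 1799 depleted genes, 1796 of them among the 2743. A fixed dispersion of 0.1, which stands for a larger spread between samples than the IP libraries show, gave 1577 enriched genes, 1399 of them among the 2973, and 1531 depleted ones, 1442 of them among the 2743. Of the members Fzd9 alone passed, while Fzd1 (0.92), Fzd2 (0.94), Fzd3 (0.89), Fzd5 (0.63), Fzd6 (−0.42), Fzd8 (0.95) and Fzd10 (0.50) no longer passed. Without 1 IP library no test was possible, the members over 2-fold numbered 1 to 2, and the median of the members was 0.61 to 0.76. Fzd2 stood at 0.93 to 0.96, while Fzd1 ran from 0.63 without IP replicate 1 to 1.17 without IP replicate 2. The other 2 settings were chosen after seeing the data. With GC, length and exon number trends of all genes removed, the median was 0.12, Fzd5 (−0.34), Fzd7 (−0.61) and Fzd10 (−0.0075) turned below 0, and Fzd1 (0.21), Fzd2 (0.28) and Fzd8 (0.29) no longer passed. With the trends of protein-coding genes removed, 0 members were enriched and 1 was depleted, the median was −0.52, Fzd1 (−0.60), Fzd2 (−0.51), Fzd4 (−0.27), Fzd5 (−0.72), Fzd7 (−1.42), Fzd8 (−0.50) and Fzd10 (−0.77) turned below 0, and Fzd9 (0.26) no longer passed. The cause of these changes was not tested. Fzd1, the member with the fewest reads (107 in the input), had the largest SE of the members (0.299), and the unreplicated input limits every ratio.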
